A study of Mus musculus with 6 samples.

Results

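The genes described here are the cytochrome P450 genes of families 1 to 3 in mouse liver, together with the reductase gene that supplies the enzymes with electrons and the genes of the receptors that control them. The list held 39 genes, of which 35 encode P450 enzymes and the others are Por, Nr1i2, Nr1i3 and Ahr. They were matched by current or older symbol to the platform annotation, and each gene was read from the probe set listed for it alone, taking the one with the highest mean signal where there were several. Such a probe set was listed for 34 of the 39 genes. Cyp2a4 and Cyp2a5 were listed with 1 probe set between them, and Cyp2a22, Cyp2c40 and Por had none in the annotation used and were not analysed here. Cyp3a16 and Cyp3a44 lay at or below the signal floor of 221.4 on all 6 arrays, with highest signals of 79.1 and 160.5. This left 32 measured genes, 29 of them P450 genes, out of 13989 measured genes in the whole data set. Of the 32, 27 were above the floor on all 6 arrays, and Cyp2b10, Cyp2b13, Cyp2c39, Cyp2c55 and Cyp2u1 were at it on 1 array each.

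P450 enzymes of these families are heme proteins of the endoplasmic reticulum that insert an oxygen atom into drugs, pollutants, steroids, retinoids, bile acids and fatty acids. The hepatocyte is their main site in the body, and many are made chiefly in the hepatocytes around the central vein. Their genes are switched on by ligand sensors. The pregnane X receptor PXR (Nr1i2) and the constitutive androstane receptor CAR (Nr1i3) act mainly on the CYP2B, CYP2C and CYP3A genes, and the aryl hydrocarbon receptor (Ahr) acts on the CYP1 genes. In rodents several CYP2A, CYP2B, CYP2C, CYP2D and CYP3A genes also differ between males and females, under the control of the pattern of growth hormone release. Inflammation is known to lower the expression of many of them.

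RNA from livers of male C57BL6/J mice was hybridised to Affymetrix mouse expression arrays, with 1 array for each of 6 groups and 3 to 4 livers pooled on each. In FFD+EGFRi mice a fast-food diet was combined with canertinib, an irreversible inhibitor of the kinases of EGFR and its relatives. FFD mice ate the diet without the drug, and chow mice ate standard food. All mice were 6 to 8 weeks old at the start, and were studied after 2 or 5 months. The diet held 21% fat by weight (42% of its energy), 34% sucrose and 0.2% cholesterol, and the drinking water held 18.9 g glucose and 23.1 g fructose per litre. In the 2-month study canertinib was part of the food for the whole period, at about 80 mg/kg a day. In the 5-month study canertinib (80 mg/kg, intraperitoneal) was given on 5 days a week during the last 5 weeks, and the FFD mice received PBS on the same schedule. No injection is recorded for the 5-month chow mice. The effects of time, route and length of treatment therefore cannot be told apart between the studies, and neither can diet and injection in the 5-month comparison with chow.

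The values are MAS5 signals on a linear scale, and the mean of each array without its top and bottom 2% of probe sets was 500.0. The tissue label was borne out by 12 of 12 hepatocyte marker genes above the floor on every array. With 1 array a group, differences within a study had no replicate and no test, and are given as sizes beside the share of all measured genes of the same size. Chow livers of the 5-month and the 2-month study, which differ in neither diet nor drug but in study and time, gave a scale for such differences. Acute phase genes differed between them, as given below. The SD of the log2 difference over all measured genes was 0.40. Signals at least 2-fold higher at 5 months were seen in 1.28% of these genes, and at least 2-fold lower ones in 1.32%, against 0 and 0 of the 32 measured P450 and sensor genes, whose largest difference was 0.81 for Cyp2c54. In RNA of whole liver, fewer cells of a type and less RNA per cell cannot be told apart. The comparisons of FFD+EGFRi with FFD and of FFD with chow share the FFD array, so opposite signs in them are not independent, and their values are given side by side only.

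Against FFD livers, FFD+EGFRi livers were marked by higher Cyp2c54, Cyp2c70 and Cyp3a13 in both studies. Cyp2c70 and Cyp3a13 were also higher than in chow livers, while Cyp2c54 differed from chow by log2 0.52 at 2 months and -0.24 at 5 months. FFD livers had higher Cyp2b9 than chow livers in both studies. At 5 months, when the FFD mice were also injected with PBS, their signals of Cyp1a2 and most CYP2C genes were lower than in chow livers. At 2 months 3 of the 32 measured genes were at least 2-fold higher in FFD+EGFRi livers than in FFD livers, namely Cyp2c54, Cyp2c70 and Cyp3a13, which is 9.38% against 3.55% of all measured genes. Another 3 were at least 2-fold lower, namely Cyp2b10, Cyp2c55 and Cyp3a11, against 3.26% of all measured genes. At 5 months the 3 higher genes were again Cyp2c54, Cyp2c70 and Cyp3a13, against a background of 2.19%. The 2 lower genes were Cyp2b9 and Cyp2c39, or 6.25% against 2.73% of all measured genes.

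In FFD livers against chow livers at 2 months only Cyp2b9 of the 32 genes was at least 2-fold higher, which is 3.12% against 1.98% of all measured genes. None of the 32 was at least 2-fold lower, where the background was 1.55%. At 5 months Cyp2b9 was again the 1 gene at least 2-fold higher, against a background of 2.72%. The 6 genes at least 2-fold lower at 5 months were Cyp1a2, Cyp2c44, Cyp2c50, Cyp2c54, Cyp2c70 and Cyp2u1, which is 18.8% of the 32 against 1.83% of all measured genes. The counts of higher genes with the diet thus stood near their backgrounds, and the count of lower genes at 5 months was above it. Closest to the 2-fold line were, for the drug, Cyp3a11 inside (log2 difference -1.06) and Cyp1a2 outside (-0.81) at 2 months, and Cyp3a13 inside (1.01) and Cyp1b1 outside (-0.98) at 5 months. For the diet they were Cyp2b9 inside (1.94) and Cyp1a2 outside (-0.96) at 2 months, and Cyp2c70 inside (-1.05) and Cyp2c37 outside (-0.99) at 5 months.

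The middle of the group lay on different sides of 0 in the 2 studies. For the 29 measured P450 genes the median log2 difference of FFD+EGFRi livers from FFD livers was -0.36 at 2 months and 0.13 at 5 months, while all measured genes had medians of 0.00. For FFD livers against chow livers the P450 medians were 0.11 at 2 months and -0.55 at 5 months. At 5 months 25 of the 29 were lower in FFD livers than in chow livers, against 6865 of all 13989 measured genes. Many of the 29 are bright, and the 5-month FFD array had the lowest top signal of all arrays, 61267.6. The 12 hepatocyte markers, also bright, were all lower there too (median -0.37). After quantile normalization, which gives all arrays the same range, 5 of the 32 genes were at least 2-fold lower in this comparison, against 6 without it. The count of 25 was not repeated in that way, so the part of the array's range in that count was not tested. Over the 32 genes, the sign was the same in both studies for 20 genes with the drug and for 17 with the diet. The same share was not computed over all measured genes, so these counts are no measure of agreement between the studies.

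**Figure D1:**
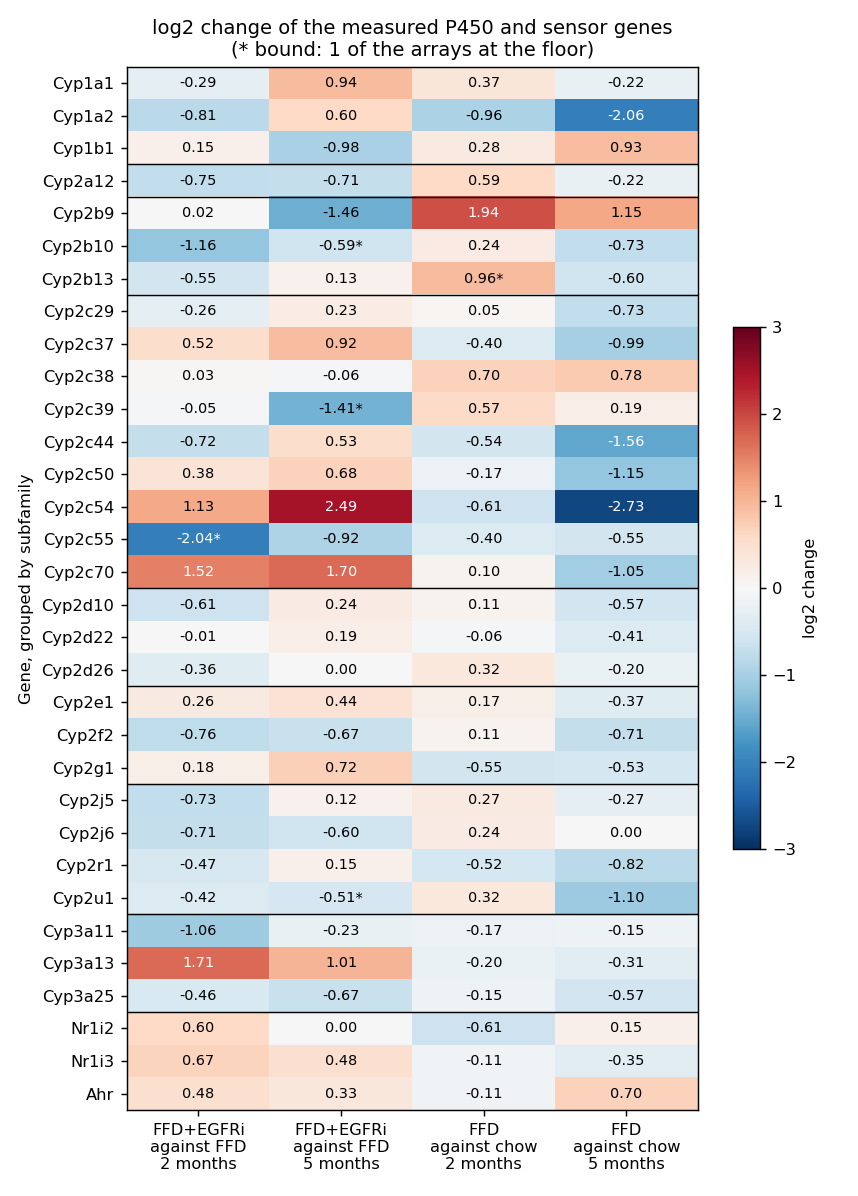
Log2 difference of each of the 32 measured genes (rows, grouped by subfamily) in FFD+EGFRi against FFD and FFD against chow livers at 2 and 5 months (columns), 1 array a group, with red for higher, blue for lower and an asterisk where 1 array was at the floor and the value is a bound. Cyp2c54, Cyp2c70 and Cyp3a13 are red in both drug columns, and the column of the diet at 5 months holds 26 genes below 0.

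By the probe sets used, the sensor genes differed by less than 2-fold in both comparisons and both studies. Here and in what follows, pairs of values are for the 2-month and then the 5-month study. Nr1i3, which encodes CAR, had signals of 2484 and 2315 in the FFD+EGFRi livers, 1563 and 1662 in the FFD livers and 1688 and 2124 in the chow livers. Its signal was highest in the FFD+EGFRi livers in both studies, by a log2 difference of 0.67 and 0.48 from FFD livers, and FFD livers were lower than chow livers by -0.11 and -0.35. Nr1i2, which encodes PXR, had signals of 609.5 and 618 in the FFD+EGFRi livers, 401 and 618 in the FFD livers and 612 and 559 in the chow livers. The FFD liver pool of the 2-month study was its low point, and the 5 other arrays lay between 558.5 and 618.4. A second probe set of Nr1i2 gave log2 differences of 0.15 and -0.10 for the drug, where the one used gave 0.60 and 0.00.

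Ahr, the sensor of dioxins and of plant and microbial indoles, had signals of 1815 and 2227 in the FFD+EGFRi livers, 1300.1 and 1772 in the FFD livers and 1400.1 and 1090.2 in the chow livers. Its order at 5 months was FFD+EGFRi, FFD, chow, and FFD+EGFRi livers were 2.04-fold higher than chow livers, while at 2 months the 3 arrays lay within 1.4-fold of one another. A second probe set of Ahr gave the opposite order at 5 months, with signals of 923 and 163 in the FFD+EGFRi livers, 942 and 285 in the FFD livers and 588 and 499 in the chow livers. Its value in the 5-month FFD+EGFRi livers was below the floor, so no direction is given here for Ahr.

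**Figure D2:**
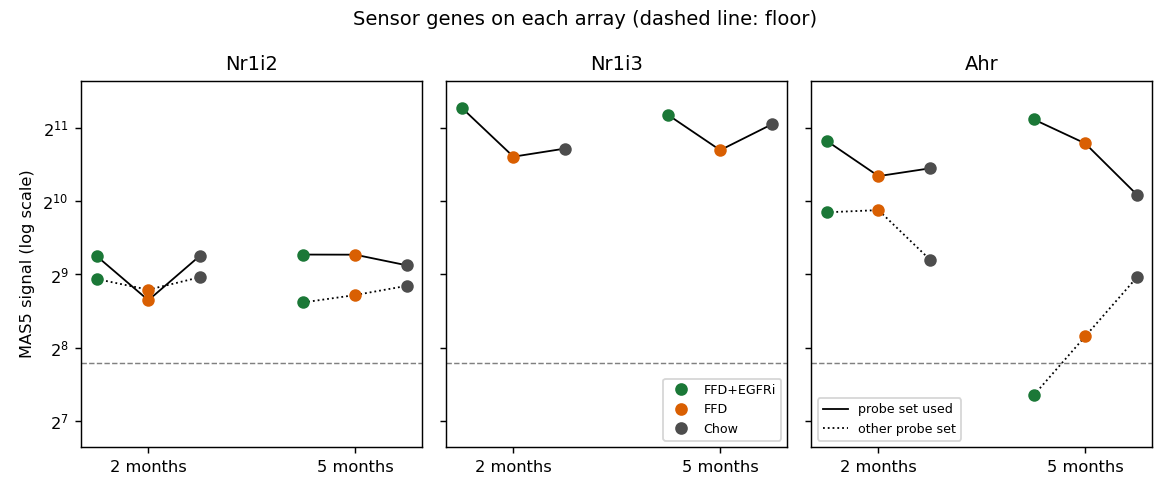
MAS5 signal (log axis) of Nr1i2, Nr1i3 and Ahr on each of the 6 arrays, coloured by group and placed by study, with solid lines for the probe set used, dotted lines for a second probe set and a dashed line at the floor of 221.4. Nr1i3 is highest in FFD+EGFRi livers in both studies, and the probe sets of Ahr run in opposite directions at 5 months.

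In the CYP1 family the caffeine and arylamine hydroxylase gene Cyp1a2 stood out. Cyp1a2 had signals of 3835 and 5541 in the FFD+EGFRi livers, 6743 and 3657 in the FFD livers and 13142 and 15219.7 in the chow livers. All 4 arrays of mice on the fast-food diet, with or without drug, were below both chow arrays. FFD livers were 1.95-fold lower than chow livers at 2 months and 4.16-fold lower at 5 months. The drug was accompanied by a 1.76-fold lower signal at 2 months and a 1.52-fold higher one at 5 months, so the log2 differences of -0.81 and 0.60 had opposite signs. Cyp1a1, the classic inducible target of the aryl hydrocarbon receptor, had signals of 383.8 to 737.9 over the 6 arrays and was less than 2-fold different in every comparison. Cyp1b1, an estradiol hydroxylase made mostly outside the hepatocyte, had its highest signal, 653.3, in the 5-month FFD livers, against 331.7 in the FFD+EGFRi livers and 343.4 in the chow livers of that study. Another Cyp1b1 probe set had its highest signal, 469.6, in the 2-month FFD+EGFRi livers, and its log2 differences at 5 months were -0.39 for the drug and 0.37 for the diet, where the one used gave -0.98 and 0.93. The 12 stellate cell marker genes were lower in FFD+EGFRi than in FFD livers at 5 months in 11 of 12 cases (median -0.50) and higher in FFD than in chow livers in 12 of 12 (median 0.80), and their part in the Cyp1b1 values was not tested.

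The CYP2A genes could be read for Cyp2a12 and for Cyp2a4 and Cyp2a5 jointly. Cyp2a12, a steroid hydroxylase gene, had signals of 16740.2 and 11930.1 in the FFD+EGFRi livers, 28087 and 19576 in the FFD livers and 18719.6 and 22836 in the chow livers. The drug pools were lower than the FFD pools by log2 differences of -0.75 and -0.71, and the diet differed from chow by 0.59 and -0.22. The probe set shared by Cyp2a4, a testosterone 15alpha-hydroxylase, and Cyp2a5, the coumarin hydroxylase, had signals of 4591 and 4514 in the FFD+EGFRi livers, 9875 and 8041 in the FFD livers and 14376 and 13564 in the chow livers. It fell into the same order in both studies, with FFD+EGFRi below FFD and FFD below chow. Its log2 differences were -1.11 and -0.83 for the drug, -0.54 and -0.75 for the diet and -1.65 and -1.59 for FFD+EGFRi against chow. It cannot be assigned to either gene and was not counted above.

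The CYP2B genes gave different values in these livers, and the promoters of 2 of them are nearly the same sequence. The windows below are the 250 bases before the annotated start (RefSeq, GRCm38.p6), read 5′ to 3′ on the gene's strand, and they are shown because Cyp2b9 was the gene higher with diet in both studies while its neighbours were not. They lie at chr7:26173159-26173408 (+) for Cyp2b9, chr7:26061245-26061494 (+) for Cyp2b13 and chr7:25897408-25897657 (+) for Cyp2b10. Capitals mark AGGTCA, the half-site bound by many nuclear receptors, in the first 2 and GCGTG, the core of aryl hydrocarbon receptor sites, on either strand in the third.
Cyp2b9: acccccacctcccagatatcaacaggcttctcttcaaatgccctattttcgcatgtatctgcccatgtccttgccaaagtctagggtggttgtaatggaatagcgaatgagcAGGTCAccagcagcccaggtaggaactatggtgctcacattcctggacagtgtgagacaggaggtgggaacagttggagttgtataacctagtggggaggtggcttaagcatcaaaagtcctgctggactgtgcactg
Cyp2b13: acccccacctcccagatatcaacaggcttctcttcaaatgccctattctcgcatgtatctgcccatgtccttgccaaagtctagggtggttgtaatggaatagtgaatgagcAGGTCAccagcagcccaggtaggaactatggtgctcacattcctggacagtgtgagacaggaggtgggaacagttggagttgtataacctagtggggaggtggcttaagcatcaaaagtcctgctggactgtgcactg
Cyp2b10: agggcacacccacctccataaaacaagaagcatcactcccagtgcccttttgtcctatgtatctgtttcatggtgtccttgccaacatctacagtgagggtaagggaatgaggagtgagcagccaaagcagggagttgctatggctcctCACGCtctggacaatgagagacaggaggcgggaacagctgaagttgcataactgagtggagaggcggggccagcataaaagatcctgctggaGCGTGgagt
The Cyp2b9 and Cyp2b13 windows were identical at 248 of 250 bases (99.2%), with the substitutions T48C and C104T counted from 1 at the 5′ end of the window and with the Cyp2b9 base first. The Cyp2b10 window matched Cyp2b9 at 70.0% of the positions of a global alignment, a share that depends somewhat on the gap penalties. AGGTCA began 138 bases before the start in both Cyp2b9 and Cyp2b13, and the Cyp2b10 window held GCGTG 9 bases before the start on the gene's strand and 101 bases before it on the other. Among 32851 promoter windows of the same length, 14.0% held AGGTCA and 28.2% held GCGTG on either strand, so each match alone is common. Of the 33 listed genes with a window in the table, 10 held AGGTCA and 4 held GCGTG, namely Cyp1a1, Cyp1b1, Cyp2b10 and Por. TTCNNNGAA, the core bound by the growth hormone effector STAT5, was in 0 of the 33 windows and in 7.02% of all windows. A match or its absence in these windows is a description of the letters only.

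Cyp2b9, a steroid and drug hydroxylase gene that is higher in female than in male mouse liver, had signals of 1366 and 396 in the FFD+EGFRi livers, 1343 and 1087 in the FFD livers and 349.7 and 488 in the chow livers. The 2-month FFD+EGFRi array and both FFD arrays were more than 2-fold above the other 3 arrays. FFD livers exceeded chow livers 3.84-fold at 2 months and 2.23-fold at 5 months. FFD+EGFRi livers did not differ from FFD livers at 2 months beyond a log2 difference of 0.02, and were 2.75-fold lower at 5 months. Cyp2b13, its near copy, had signals of 294 and 261 in the FFD+EGFRi livers, 429 and 239 in the FFD livers and 185 and 360.3 in the chow livers. It stayed close to the floor, and at 2 months its log2 difference of 0.96 between FFD and chow livers is a bound because the chow array was below the floor. Cyp2b10, the standard target of CAR, had signals of 244 and 28.1 in the FFD+EGFRi livers, 545 and 333 in the FFD livers and 462 and 551 in the chow livers. Both FFD+EGFRi arrays were below all others, by 2.23-fold at 2 months and by at least 1.51-fold at 5 months against FFD livers. The Cyp2b10 probe set used is of a kind that can match related transcripts. A second such probe set gave log2 differences of -0.67 and -0.67 for the drug. The only Cyp2b10 probe set not of this kind lay below the floor on every array, with signals from 109.9 to 201.2. It gives no direction, so the lower signal with the drug rests on probe sets that may match related transcripts.

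The 9 measured CYP2C genes held the highest and the lowest log2 difference of the 32 genes with the drug, 2.49 for Cyp2c54 and a bound of -2.04 for Cyp2c55. These enzymes hydroxylate steroids and drugs and epoxidise arachidonic acid, and Cyp2c70 makes muricholic acids, the 6-hydroxylated bile acids that set mouse bile apart from human bile. Their median log2 difference between FFD+EGFRi and FFD livers was 0.03 at 2 months and 0.53 at 5 months, with 2 genes past 2-fold upward and 1 downward each time. Between FFD and chow livers the medians were -0.17 and -0.99, and at 5 months 7 of the 9 were lower and 4 of them at least 2-fold.

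Cyp2c54, an arachidonic acid epoxygenase gene, had signals of 11399 and 11806 in the FFD+EGFRi livers, 5213 and 2100.0 in the FFD livers and 7936 and 13937 in the chow livers. In each study the FFD array was the lowest of the 3, and the FFD+EGFRi array lay within 1.44-fold of its chow array. The drug groups were 2.19-fold and 5.62-fold higher than the FFD groups at 2 and 5 months, and the FFD groups were 1.52-fold and 6.64-fold lower than chow. Cyp2c54 also had the largest difference between the chow arrays among these genes, with 13936.5 at 5 months against 7936.0 at 2 months. Cyp2c37 and Cyp2c50, which encode epoxygenases too, showed the same order at 5 months with smaller differences, 0.92 and 0.68 for the drug and -0.99 and -1.15 for the diet.

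Cyp2c70 had signals of 64130.1 and 41284 in the FFD+EGFRi livers, 22395 and 12736 in the FFD livers and 20844 and 26321 in the chow livers. Both FFD+EGFRi arrays were above all 4 other arrays. They exceeded FFD livers 2.86-fold at 2 months and 3.24-fold at 5 months. They exceeded chow livers 3.08-fold and 1.57-fold. FFD livers differed from chow livers by log2 0.10 at 2 months and were 2.07-fold lower at 5 months. Its promoter window is shown because Cyp2c70 was at least 2-fold higher with the drug in both studies, and lies at chr19:40187287-40187536 (−). Capitals mark AGGTCA and CAAAGTCCA, a core bound by the hepatocyte factor HNF4A.
Cyp2c70: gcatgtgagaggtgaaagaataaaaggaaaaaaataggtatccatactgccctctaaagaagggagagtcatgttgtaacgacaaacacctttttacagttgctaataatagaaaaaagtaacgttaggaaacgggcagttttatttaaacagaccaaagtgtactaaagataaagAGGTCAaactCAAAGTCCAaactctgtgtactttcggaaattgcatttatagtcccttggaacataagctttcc
AGGTCA began 74 bases and CAAAGTCCA 64 bases before the start. CAAAGTCCA was found on either strand in 0.384% of all 32851 windows and in 4 of the 33 windows of listed genes, namely Cyp2c40, Cyp2c70, Cyp3a11 and Cyp3a16. Of these Cyp2c40 and Cyp3a16 were not measured, and Cyp3a11 was lower with the drug, by log2 differences of -1.06 and -0.23. Hnf4a, a hepatocyte marker here, had signals of 17235 and 19025 in the FFD+EGFRi livers, 10863 and 9323 in the FFD livers and 13346 and 13660.1 in the chow livers. The part of HNF4A in the Cyp2c70 values was not tested.

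**Figure D3:**
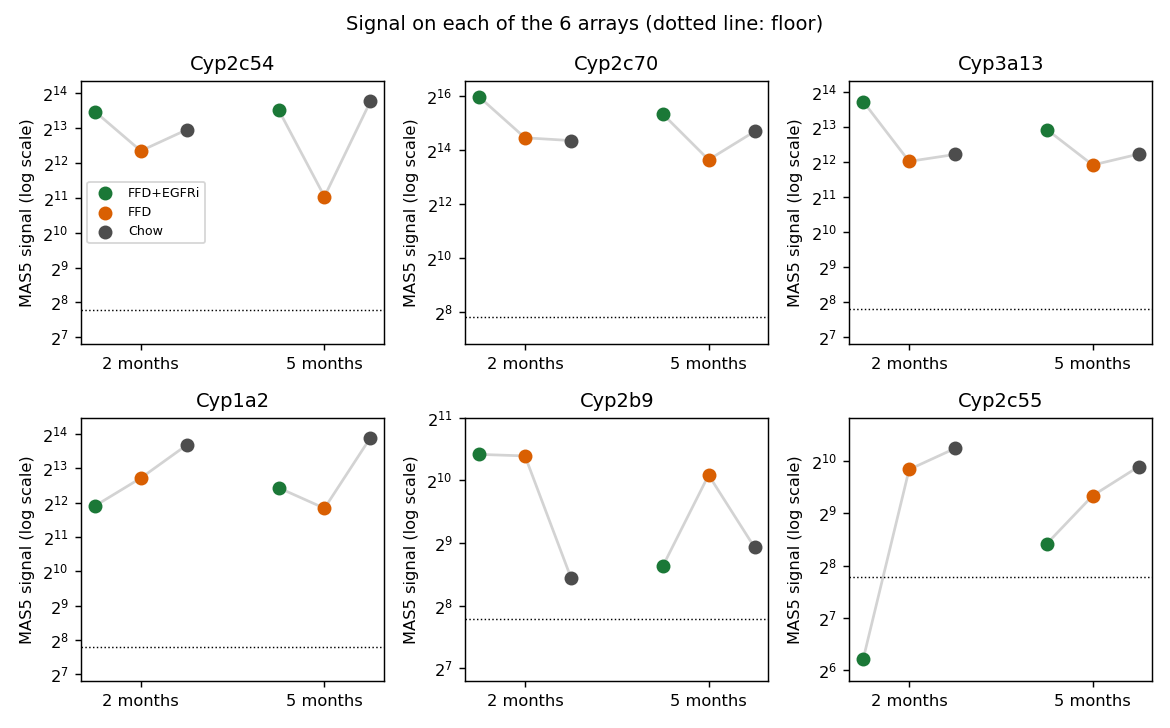
MAS5 signal (log axis) of 6 genes on each of the 6 arrays, with FFD+EGFRi, FFD and chow from left to right within each study and a dotted line at the floor of 221.4. For Cyp2c54, Cyp2c70 and Cyp3a13 the FFD+EGFRi array lies above the FFD array in both studies, for Cyp1a2 both chow arrays lie above all others, and Cyp2c55 is below the floor in the 2-month FFD+EGFRi livers.

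Some other CYP2C genes were lower with the drug in 1 study or both. Cyp2c55, an arachidonic acid hydroxylase gene inducible through PXR and CAR in mice, had signals of 74.5 and 342 in the FFD+EGFRi livers, 911 and 645 in the FFD livers and 1204 and 947 in the chow livers. Both FFD+EGFRi arrays were below all others, at least 4.12-fold below FFD livers at 2 months and 1.89-fold below them at 5 months. Cyp2c39, a retinoic acid hydroxylase gene, was at least 2.66-fold lower in FFD+EGFRi than in FFD livers at 5 months, with 89.7 against 588.1, and its log2 difference at 2 months was -0.05. Cyp2c44, an epoxygenase gene listed under its current symbol Cyp2c23, had signals of 5202 and 7064 in the FFD+EGFRi livers, 8546 and 4881 in the FFD livers and 12396 and 14359 in the chow livers. Its log2 differences for the drug were -0.72 and 0.53, of opposite signs. All 4 arrays of mice on the diet were below both chow arrays, and FFD livers were 1.45-fold and 2.94-fold lower than chow livers at 2 and 5 months. Cyp2c38 went the other way, with FFD livers 1.62-fold and 1.72-fold higher than chow livers and FFD+EGFRi livers within 1.04-fold of FFD livers. Cyp2c29 lay within 1.66-fold in both comparisons.

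The CYP2D genes in mice form a cluster related to the human debrisoquine hydroxylase, and the 3 on the list had log2 differences between -0.61 and 0.32. This range does not hold for CYP2D genes off the list, among them Cyp2d9, described at the end, with -2.00 for the drug at 2 months. Cyp2d10 had signals of 11806 and 15783 in the FFD+EGFRi livers, 18029.5 and 13354 in the FFD livers and 16715 and 19784 in the chow livers. Its log2 differences were -0.61 and 0.24 for the drug and 0.11 and -0.57 for the diet. Cyp2d22 and Cyp2d26 lay within 1.33-fold in both comparisons at both times.

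Among the single-gene subfamilies, Cyp2e1, the ethanol oxidase, had signals that ranked 10 to 26 from the top of each array's 45101 probe sets. Its log2 differences were 0.26 and 0.44 for the drug and 0.17 and -0.37 for the diet, and whether its signal was limited by saturation was not tested. Cyp2f2, a naphthalene oxidase that in liver is found near the portal vein, had signals of 21876 and 14884 in the FFD+EGFRi livers, 37074 and 23716 in the FFD livers and 34316 and 38843 in the chow livers. Both FFD+EGFRi arrays were below every other array, 1.69-fold and 1.59-fold below FFD livers at 2 and 5 months. Cyp2g1, best known from olfactory mucosa, had signals of 346.2 to 573.6, with FFD livers the lowest in both studies.

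By the probe sets used, the CYP2J, CYP2R and CYP2U genes were all lower with the drug at 2 months, with a median of -0.59, and split at 5 months. Cyp2j6 was lower in FFD+EGFRi than in FFD livers by log2 differences of -0.71 and -0.60 and differed from chow by 0.24 and 0.00 in FFD livers. A second Cyp2j6 probe set gave 0.31 and 0.07 for the drug and 0.37 and 0.49 for the diet, so the probe sets disagree on the direction with the drug. Cyp2j5, an epoxygenase gene of liver and kidney, had log2 differences of -0.73 and 0.12 for the drug and 0.27 and -0.27 for the diet. Cyp2r1, the main vitamin D 25-hydroxylase, was lower in FFD than in chow livers by -0.52 and -0.82. Cyp2u1, a fatty acid hydroxylase gene, had signals of 623 and 124 in the FFD+EGFRi livers, 835 and 314 in the FFD livers and 669 and 672 in the chow livers. The FFD+EGFRi and FFD arrays of the 5-month study were the lowest. FFD livers were 2.14-fold lower than chow livers there and FFD+EGFRi livers at least 1.42-fold lower than FFD livers, while a second Cyp2u1 probe set gave log2 differences at 5 months of -0.07 for the drug and -0.37 for the diet.

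In the CYP3A family the drug went with opposite differences in 2 genes. Cyp3a13, a PXR target best known from the intestine, had signals of 13514 and 7767 in the FFD+EGFRi livers, 4138 and 3853 in the FFD livers and 4747 and 4782 in the chow livers. Both FFD+EGFRi arrays were above all 4 others, which lay between 3852.9 and 4781.6. FFD+EGFRi livers exceeded FFD livers 3.27-fold at 2 months and 2.02-fold at 5 months. Cyp3a11, the main CYP3A of mouse liver and a standard PXR target, had signals of 21372 and 38672 in the FFD+EGFRi livers, 44529 and 45417 in the FFD livers and 50153 and 50547 in the chow livers. The FFD+EGFRi array was the lowest in each study, 2.08-fold below FFD livers at 2 months and 1.17-fold below at 5 months. Cyp3a25 was likewise lowest in FFD+EGFRi livers, by 1.38-fold and 1.59-fold against FFD livers. FFD and chow livers lay within 1.48-fold of each other for all 3 genes.

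**Figure D4:**
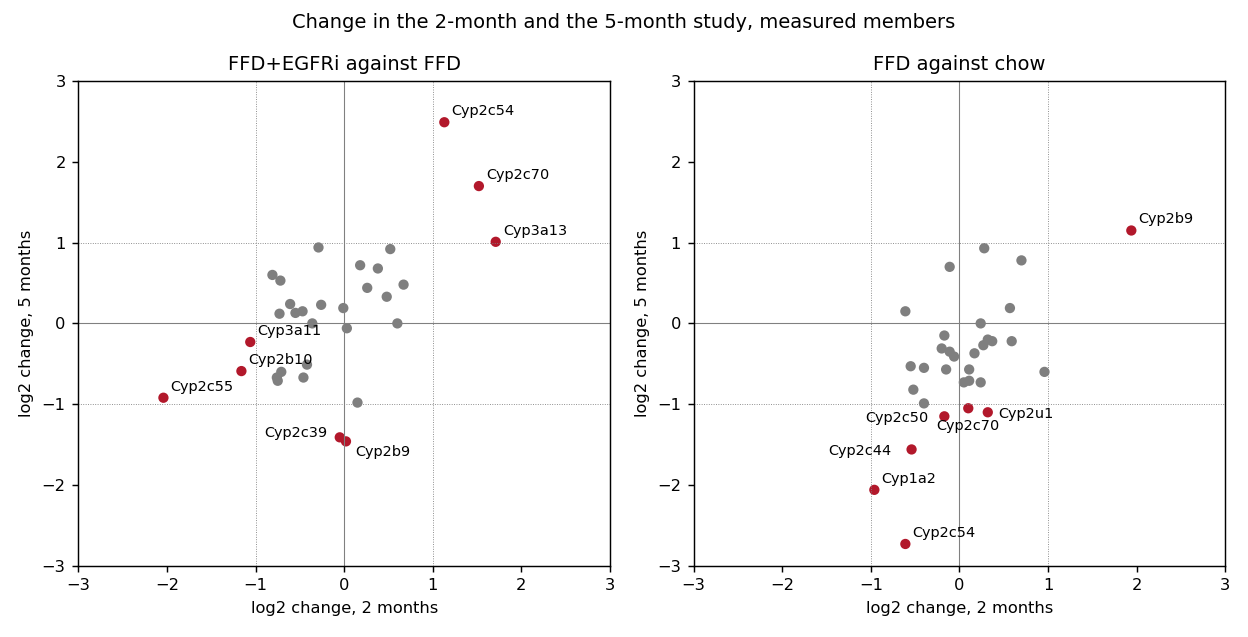
Log2 difference in the 5-month study (vertical axis) against that in the 2-month study (horizontal axis) for the 32 measured genes, with FFD+EGFRi against FFD on the left, FFD against chow on the right, dotted lines at 2-fold and red points for genes at least 2-fold different in 1 study or both. Cyp2c54, Cyp2c70 and Cyp3a13 lie past 2-fold at both times with the drug, and Cyp2b9 with the diet.

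A limma fit over all 6 arrays, with terms for treatment and study and 2 residual degrees of freedom, took the studies as repeats of each treatment although the drug was given differently in them. For FFD+EGFRi against FFD its calls, at a p under 0.05 after Benjamini-Hochberg adjustment, were 100 of 13989 genes (0.715%) and 0 of the 32 genes. At an unadjusted p under 0.05 limma had 10 of the 32, against 14.8% of all measured genes. In this fit Cyp3a13 had the lowest adjusted p of the 32 for the drug, 0.079, with a mean log2 difference of 1.36 ± 0.22 (SE). Cyp2c70 had 1.61 ± 0.34 (limma adjusted p = 0.13), Cyp2c54 had 1.81 ± 0.48 (limma adjusted p = 0.19) and Cyp2c55 had -1.48 ± 0.34 (limma adjusted p = 0.15). All 4 had the same sign in both studies. Without the floor limma called 2 of the 32, Cyp2c70 and Cyp3a13, with a lowest adjusted p of 0.0278.

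For FFD against chow the calls of limma at that threshold were 4 genes (0.0286%) and 0 of the 32. At an unadjusted p under 0.05 it had 7 of the 32, against 9.87% of all measured genes. In limma, Cyp2c38 had the lowest adjusted p of the 32, 0.18, with a mean log2 difference of 0.74 ± 0.12 (SE). Cyp1a2 had -1.51 ± 0.34 (limma adjusted p = 0.27), Cyp2c54 had -1.67 ± 0.48 (limma adjusted p = 0.37) and Cyp2b9 had 1.55 ± 0.53 (limma adjusted p = 0.44). With the floor, no difference of these genes passed this test, and the sizes above describe these pools.

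Set against chow livers, FFD+EGFRi livers had 3 of the 32 genes at least 2-fold higher at 2 months, namely Cyp2b9, Cyp2c70 and Cyp3a13, where 3.8% of all measured genes were. The 4 genes at least 2-fold lower were Cyp1a2, Cyp2c44, Cyp2c55 and Cyp3a11, against a background of 2.74%. At 5 months the 1 gene at least 2-fold higher was Ahr, by the probe set used, against a background of 2.82%. The 8 lower genes were Cyp1a2, Cyp2b10, Cyp2c39, Cyp2c44, Cyp2c55, Cyp2f2, Cyp2u1 and Cyp3a25, or 25.0% of the 32 against 2.72% of all measured genes. Cyp1a2, Cyp2c44 and Cyp2c55 were thus at least 2-fold below chow in the drug-treated mice of both studies.

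The genes that share a place or a hormone response were also counted. Of the P450 genes known from hepatocytes around the central vein, 8 were measured. In FFD livers against chow livers 8 of 8 were lower at 5 months (median -0.86) and 6 of 8 at 2 months (median -0.17). Over all measured genes 49.1% were lower at 5 months and 46.6% at 2 months. The 5-month direction was not particular to these genes. Lower there too were 12 of 14 periportal genes, 12 of 12 hepatocyte markers and 10 of 15 non-P450 genes of the central zone. For FFD+EGFRi against FFD the medians of these 8 were 0.00 and 0.52. The 15 measured non-P450 genes of the same zone had medians of -0.33 and 0.27 for the drug and 0.44 and -0.29 for the diet, and 14 periportal genes had 0.20 and 0.43 for the drug and -0.02 and -0.49 for the diet. Of the P450 genes known to be higher in females, 5 were measured, and their medians were -0.05 and -0.59 for the drug and 0.70 and 0.19 for the diet.

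Other targets of CAR and PXR were mostly lower with the drug. Of 27 listed non-P450 targets 21 were measured, and with the drug 10 were at least 2-fold lower and 2 at least 2-fold higher at 2 months (median -0.82), where 3.26% and 3.55% of all measured genes were. At 5 months 7 were at least 2-fold lower and 0 higher (median -0.46), against 2.73% and 2.19% of all measured genes. Gsta4, a glutathione transferase for lipid aldehydes, had signals of 73.2 and 49.3 in the FFD+EGFRi livers, 1453 and 1417 in the FFD livers and 2352 and 2288 in the chow livers. Gsta2, another glutathione transferase, had signals of 258 and 162 in the FFD+EGFRi livers, 1250.2 and 1313 in the FFD livers and 1509.8 and 1948 in the chow livers. In both genes the FFD+EGFRi arrays were the lowest of each study, and lay below the floor for Gsta4 in both studies and for Gsta2 at 5 months. With the diet the medians of the 21 genes were 0.07 and -0.06. In that comparison Ces2a, a carboxylesterase, had log2 differences of -1.89 and -2.00 and Gstm3, a glutathione transferase, 1.54 and 1.31.

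The 5 measured targets of the aryl hydrocarbon receptor outside CYP1 had medians of 0.84 and -0.07 for the drug and -0.11 and -0.22 for the diet. With the drug 4 of the 5 were higher at 2 months, 2 of them at least 2-fold, where 3.55% of all measured genes were. At 5 months 0 were at least 2-fold higher or lower, against 2.19% and 2.73% of all measured genes. Fmo2 had log2 differences of 2.36 and 0.58 for the drug. Nqo1, a quinone reductase gene that also answers to oxidative stress, was the 1 gene lower at 2 months. Nqo1 was lower in FFD+EGFRi than in FFD livers by -0.83 and -0.92 and higher in FFD than in chow livers by 0.98 and 1.07. Among 14 measured partners of P450 in electron transfer and heme turnover, the medians were -0.39 and -0.17 for the drug and 0.11 and -0.04 for the diet. Cyb5b, a cytochrome b5, had log2 differences of -1.24 and -0.43 for the drug, and Blvrb, a biliverdin reductase, had -1.23 and -0.93. Alas1, the rate-limiting enzyme of heme synthesis, had -0.16 and -0.44 for the drug and -0.10 and 0.49 for the diet.

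Of 21 measured partners and coregulators of the sensors, 3 were at least 2-fold higher with the drug in each study, with 1 at least 2-fold lower at 2 months and 0 at 5 months. Over all measured genes 3.55% and 2.19% were higher and 3.26% and 2.73% lower by that much. Ppargc1b, a coactivator of nuclear receptors, had signals of 1317 and 1046 in the FFD+EGFRi livers, 233 and 226 in the FFD livers and 1468 and 1989 in the chow livers. Its FFD signals lay just above the floor, and both other groups were several-fold higher in each study. Foxa3, a liver forkhead factor, had log2 differences of 0.91 and 1.26 for the drug and -0.82 and -0.52 for the diet.

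**Figure D5:**
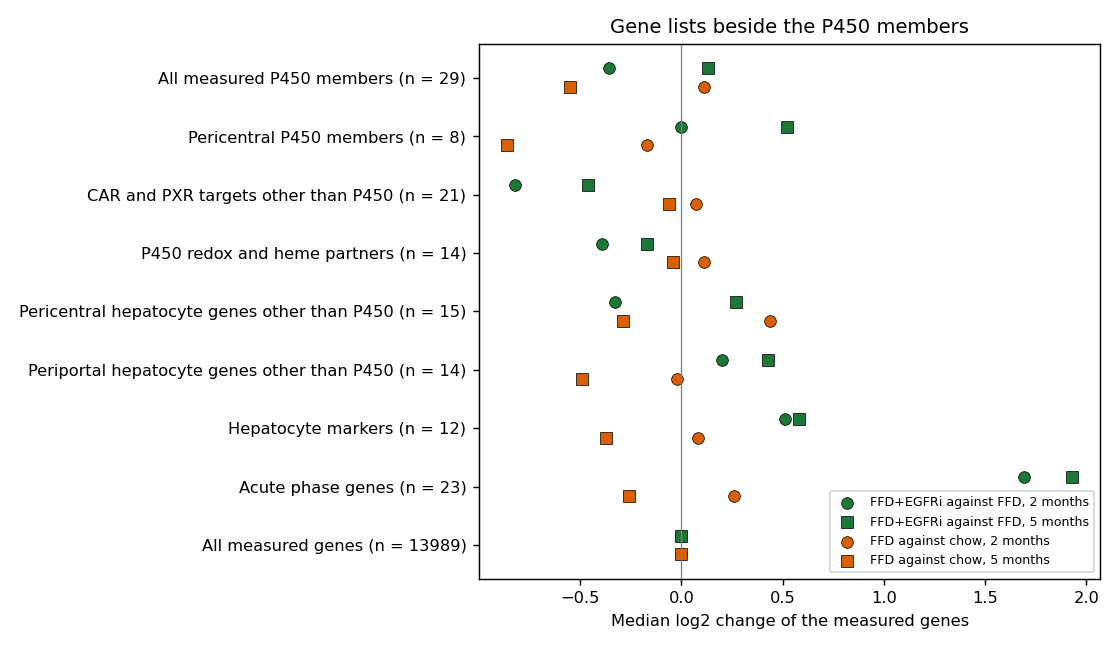
Median log2 difference (horizontal axis) of the measured genes in each list (rows, with their number), green for FFD+EGFRi against FFD and orange for FFD against chow, circles for 2 months and squares for 5 months, 1 array a group. The targets of CAR and PXR other than P450 have medians of -0.82 and -0.46 with the drug, the acute phase genes 1.69 and 1.93, and all measured genes 0.00.

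Other signals differed between the groups as well. Of the 12 hepatocyte markers, 12 were higher in FFD+EGFRi than in FFD livers in each study (medians 0.51 and 0.58), and 12 were lower in FFD than in chow livers at 5 months (median -0.37) and 4 at 2 months (median 0.08). Of 23 measured acute phase genes, 16 were at least 2-fold higher in FFD+EGFRi than in FFD livers at 2 months and 18 at 5 months, against 3.55% and 2.19% of all measured genes. In chow livers 20 of the 23 were higher at 5 than at 2 months, 5 of them at least 2-fold, against 1.28% of all measured genes. Neutrophil markers had summed signals of 90230.0 and 86245 in FFD+EGFRi livers, 6213 and 8111 in FFD livers and 4052 and 4701 in chow livers at 2 and 5 months, a list in which the acute phase gene Lcn2 alone gave 73181 and 68150.2 in FFD+EGFRi livers. Macrophage markers summed to 45444 and 50388 in FFD+EGFRi livers, 36073 and 44618 in FFD livers and 15430.0 and 15330.0 in chow livers. Camp was at or below the floor on all 6 arrays in the neutrophil list, as was Itgam in the macrophage list. Their part in the P450 values was not tested. The 3′ actin control probe set exceeded the 5′ one, a gap that grows as RNA degrades. This log2 gap was 1.19 and 1.12 in FFD+EGFRi livers, 0.85 and 0.98 in FFD livers and 0.94 and 0.85 in chow livers. For the Gapdh control it was -0.2 and -0.14 in FFD+EGFRi livers, -0.3 and -0.22 in FFD livers and -0.18 and -0.09 in chow livers. The Gapdh control thus had no 3′ excess on any array, and the part of RNA quality was not tested either.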

How the data were processed

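Liver RNA pools of 6 groups were measured on 1 array each, so no group has a replicate, which limits precision. MAS5 signals were deposited, per the submitters' processing notes, with no version stated. These deposited intensity values are linear, and from the values the authors had scaled each array to a mean of 500.0 without the extreme 2% of probe sets at each end. The files give no detection calls.

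Of 45101 probe sets, 34958 had 1 symbol in the platform annotation, 932 several and 9211 none. Signals under the 50th percentile of all values (221.4) were raised to it and log2 transformed, and genes above it on at least 1 array were kept (13989 of 18194). A difference with 1 array at the floor is a bound, written as at least N-fold. Probe sets whose name marks possible matches to related transcripts were used where they were the brightest of the gene (Cyp2b10, Cyp2c44). limma 3.58.1 in R 4.3.3 (lmFit, then eBayes with a variance trend) was fitted to all measured genes on all 6 arrays with terms for treatment and study, and p-values were Benjamini-Hochberg adjusted over all of them. This fit was also run on simulated data that had the same spread in every gene, no floor and no difference between the studies. That setting is unlike these arrays, so the run does not show how the fit behaves on them. Tables were made in Python 3.11.15 with pandas 2.3.3 and NumPy 2.4.6, promoters were aligned with Biopython 1.88, and figures drawn with matplotlib 3.10.9. Promoter windows came from the RefSeq table of GRCm38.p6.

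The genes described and all gene lists were chosen with earlier results of these data known, so no count or median over them is independent support. Signals on every array are given for genes at least 2-fold different in the same direction in both studies, for the sensors, and for the gene of each subfamily with the largest mean absolute difference. Other genes with values were named after their values were seen, and from each companion list up to 2 genes with the largest mean absolute difference of a comparison were named, plus Alas1 and Hnf4a. The alternatives were quantile normalization, median centring, a floor at the 40th or the 60th percentile or no floor, averaging a gene's probe sets, no cross-matching probe sets, thresholds of 1.5-fold and 3-fold, and limma without the study term or without the variance trend.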

Additional observations from a re-analysis of the deposited data

How the results depend on the processing

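With 1 array a group no array could be left out within a study. The labels give no replicate numbers, and the only block is the study, a term of the limma fit. Without that term limma called 0 of the 32 genes in either comparison, with a lowest adjusted p of 0.109 for the drug and 0.286 for the diet. Moving the threshold changed most counts of the 32 genes. At 1.5-fold, FFD+EGFRi livers had 5 higher and 10 lower genes than FFD livers at 2 months and 8 higher and 9 lower at 5 months, and FFD livers had 4 higher and 3 lower genes than chow livers at 2 months and 4 higher and 12 lower at 5 months. At 3-fold the drug counts were 1 higher and 1 lower at 2 months and 0 lower at 5 months, and the diet counts at 5 months were 0 higher and 2 lower. For the drug at 5 months, the count of 2 lower genes was 4 with a floor at the 40th percentile or none and 1 with a floor at the 60th. For the diet at 2 months the count of higher genes was 2 under median centring, a floor at the 40th percentile or no floor, and quantile normalization gave 1 lower gene. Without a floor limma called 2 of the 32 genes for the drug, Cyp2c70 and Cyp3a13, with a lowest adjusted p of 0.0278. Its lowest adjusted p for Cyp3a13 under the other alternatives ran between 0.0589 and 0.163. Cyp2b10 lost its 2-fold difference with the drug at 2 months under a floor at the 60th percentile, the mean over probe sets (-0.61) and without cross-matching probe sets (0.00). Cyp2c39 had -0.87 with the drug at 5 months under a floor at the 60th percentile, and with the diet at 5 months Cyp2c70 had -0.99 after quantile normalization and Cyp2u1 -0.73 as the mean over probe sets. Named differences of Cyp1a2, Cyp2b9, Cyp2c44, Cyp2c50, Cyp2c54, Cyp2c55, Cyp3a11 and Cyp3a13 stayed at least 2-fold under every normalization and floor alternative. Each of these genes has 1 probe set, so the probe set alternatives could not change their values. That of Cyp2c44 is cross-matching, so Cyp2c44 was not run without such probe sets. Apart from Cyp2c55 they were above the floor on all 6 arrays, which left the floor alternatives little to change. Among smaller differences 8 took the other sign. These were Cyp2b9 with the drug at 2 months under median centring (-0.08), and under quantile normalization the diet values of Cyp2c70 (-0.16), Cyp2d10 (-0.03) and Cyp2f2 (-0.09) at 2 months and of Cyp3a11 (0.15) at 5 months. With the mean over probe sets Ahr had 0.29 and -0.05 with the diet at 2 and 5 months and -0.02 with the drug at 5 months. Signals near the floor limit what can be said of Cyp2b10, Cyp2b13, Cyp2c39, Cyp2c55 and Cyp2u1.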

Other observations

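The annotation also held 12 P450 genes of families 1 to 3 that are not on the list above, each with a probe set of 1 symbol, and 9 of them were measured. Cyp2c68, a CYP2C gene, had signals of 15385 and 9934 in the FFD+EGFRi livers, 5091 and 4573 in the FFD livers and 6483 and 6336 in the chow livers at 2 and 5 months. Both FFD+EGFRi arrays were above all 4 others, with log2 differences from FFD livers of 1.60 and 1.12. Cyp2d9, a testosterone 16alpha-hydroxylase gene that is higher in male than in female mouse liver, had signals of 3043 and 8678 in the FFD+EGFRi livers, 12193 and 8888 in the FFD livers and 22514 and 27499 in the chow livers. All 4 arrays of mice on the diet were below both chow arrays, with log2 differences of -2.00 and -0.03 between FFD+EGFRi and FFD livers and of -0.88 and -1.63 between FFD and chow livers. These genes were named after their values were seen. The remaining measured genes were Cyp2b19, Cyp2d13, Cyp2d34, Cyp2d40, Cyp2j13, Cyp2j9 and Cyp2s1. Their log2 differences between FFD+EGFRi and FFD livers ran from -0.57 to 0.75, and those of Cyp2j13 and Cyp2j9 are limited by the floor. With the diet Cyp2d40 had a bound of 1.03 at 2 months and -0.52 at 5 months.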
